A study of Mus musculus with 6 samples.

Results

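Dlx1, Dlx2, Dlx5, Dlx6os1, Sp8, Sp9, Gad1, Gad2 and Cd24a, a set of 9 genes used to mark interneurons and migrating neuroblasts, were followed through RNA sequencing of the corpus callosum, the band of axons that joins both cortical hemispheres. They were taken by name from the 24411 genes of the deposited tables, and the values of each gene's transcripts were summed within a library. Of the 9 genes, 8 had a count in at least 1 library and 6 (Dlx1, Dlx2, Sp9, Gad1, Gad2 and Cd24a) had enough counts to be tested. Tissue was cut by hand from frozen brain sections of 60 µm, taken from B6 mice on postnatal day 4. One group carried a conditional deletion (cKO) of Mettl14, which is part of the complex that writes N6-methyladenosine on RNA, and the other was wild type (WT), with 3 libraries each. The labels name no Cre driver and no cell type for the deletion, and leave unsaid whether different animals gave the libraries. The p-values therefore cover the spread between libraries, which may be technical.

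Dlx1, Dlx2 and Dlx5 encode homeodomain transcription factors of the ganglionic eminences, the ventral forebrain zones where cortical and olfactory interneurons are born. Dlx6os1 is a long noncoding RNA of the locus that also holds Dlx5 and Dlx6, and Sp8 and Sp9 encode zinc-finger factors of the same lineages. Gad1 and Gad2 encode the enzymes that make GABA, the transmitter of interneurons. Cd24a encodes a small surface glycoprotein of young neurons, much used to sort neuroblasts that leave the subventricular zone, and it is also made by other immature neurons.

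CPM here are counts scaled to a library's total over the tested genes, adjusted by edgeR's TMM factors of 0.8839 to 1.086. Of the 6 tested genes, 4 (Dlx1, Dlx2, Sp9 and Gad1) had lower CPM in every cKO library than in every WT library, but none of them passed the test. Cd24a did the opposite: it averaged 1978 ± 204.2 CPM in cKO and 590 ± 104.4 CPM in WT (SD, n = 3 each) and was the only one of the 6 to pass. A gene was called at an adjusted p below 0.05 in edgeR's quasi-likelihood test over the 5918 genes tested, of which 0.49% were called higher and 0.422% lower in cKO. Values of the cKO libraries lay wholly above those of WT for 10.4% of all tested genes and wholly below for 9.45%, against 1 and 4 of these 6. The median log2 fold change, cKO over WT, was −1.30 over the 6 genes and 0.0687 over all genes tested. In such bulk tissue, fewer cells of a type and less RNA per cell cannot be told apart.

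The libraries held 670462 to 1208382 expected counts in cKO and 843647 to 1268430 in WT. After filtering and TMM scaling, 1 count equals 0.803 to 1.41 CPM. The limit set by a count of 0, which is 3 counts, equals 2.41 to 4.24 CPM. Mettl14 itself had 2, 7 and 2 counts in cKO and 11, 8 and 5 in WT, which overlap. Both replicate 2 libraries were deeper and had shorter fragments (292.7 bases in cKO and 304.3 in WT) than the others (332.4 to 350.5). Xist, a noncoding RNA made from an inactive X chromosome, was counted in cKO libraries alone and the Y-linked Eif2s3y in WT libraries alone. Genotype and sex, as read from these genes, therefore cannot be told apart for any gene compared, autosomal genes included. The tissue is labelled as axons, but the WT libraries also held 4820 to 6928 CPM of 13 oligodendrocyte-lineage genes.

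**Figure D1:**
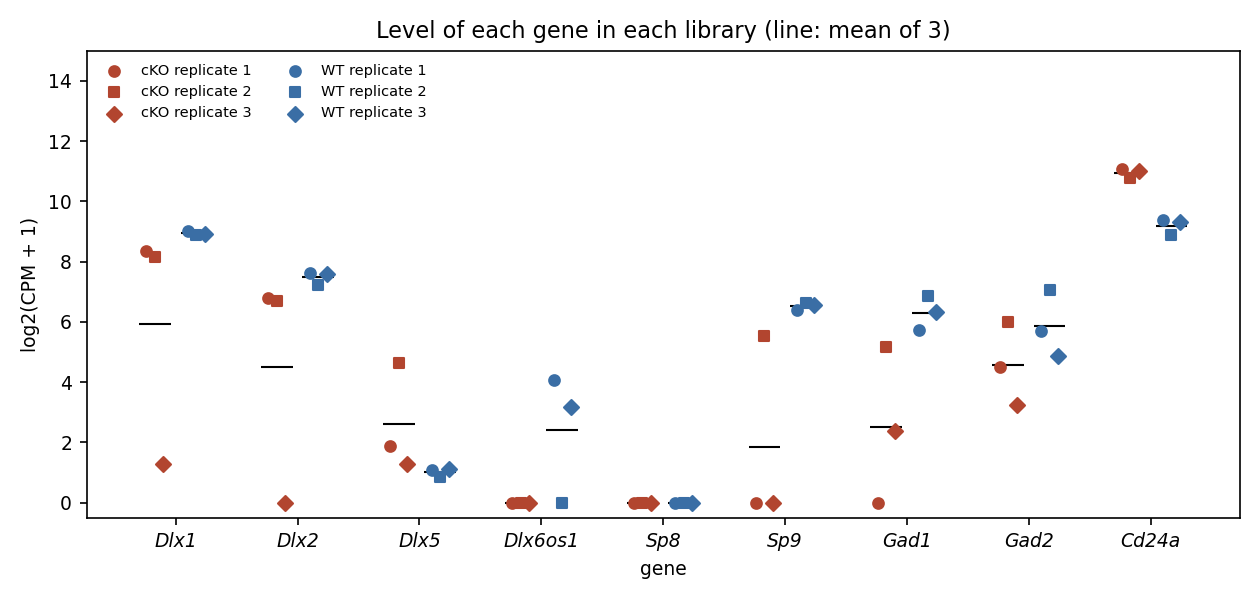
Level of each of the 9 genes in each library, as log2(CPM + 1), with cKO left of WT, a symbol for each replicate number and a line at the mean of the 3 plotted values. Cd24a lies above WT in all 3 cKO libraries, Dlx1 and Dlx2 are at or near 0 in cKO replicate 3, and Sp9 is above 0 in 1 of 3 cKO libraries.

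The 4 genes whose cKO values lay wholly below WT all lie on chromosome 2 (build GRCm38, the same assembly as mm10). Gad1 (17 exons) spans 70561303 to 70602014, Dlx1 (3 exons) 71528113 to 71533981, Dlx2 (3 exons) 71543408 to 71546754 and Sp9 (2 exons) 73271926 to 73275771. Dlx1 and Dlx2 are 9.426 kb apart, with 926.1 kb from Gad1 to Dlx1 and 1725 kb from Dlx2 to Sp9. Their promoters are shown because Dlx1 moved with Dlx2 across the libraries, and Sp9 with Gad1. Each runs 5′ to 3′ on the strand of the gene, from 250 bases before to 50 after a RefSeq start site of GRCm38.p6. Capitals mark matches on either strand to TAATTA (the core bound by many homeodomain factors, DLX included), GGGCGG (the GC box bound by SP factors), CCAAT (the CCAAT box) and CACGTG (an E-box).
Dlx1, chr2:71529195-71529494, plus strand: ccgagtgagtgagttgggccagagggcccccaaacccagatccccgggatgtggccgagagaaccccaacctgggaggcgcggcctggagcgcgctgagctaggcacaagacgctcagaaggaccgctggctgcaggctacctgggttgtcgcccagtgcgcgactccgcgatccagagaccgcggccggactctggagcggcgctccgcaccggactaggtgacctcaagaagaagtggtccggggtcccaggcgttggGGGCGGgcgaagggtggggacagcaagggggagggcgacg
Dlx2, chr2:71546705-71547004, minus strand: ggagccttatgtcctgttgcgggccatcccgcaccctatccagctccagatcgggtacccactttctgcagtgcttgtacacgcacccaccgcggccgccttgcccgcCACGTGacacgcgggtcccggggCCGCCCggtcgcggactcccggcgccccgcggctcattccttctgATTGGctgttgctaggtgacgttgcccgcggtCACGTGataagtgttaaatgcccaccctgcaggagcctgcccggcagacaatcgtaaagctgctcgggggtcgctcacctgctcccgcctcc
Sp9, chr2:73271676-73271975, plus strand: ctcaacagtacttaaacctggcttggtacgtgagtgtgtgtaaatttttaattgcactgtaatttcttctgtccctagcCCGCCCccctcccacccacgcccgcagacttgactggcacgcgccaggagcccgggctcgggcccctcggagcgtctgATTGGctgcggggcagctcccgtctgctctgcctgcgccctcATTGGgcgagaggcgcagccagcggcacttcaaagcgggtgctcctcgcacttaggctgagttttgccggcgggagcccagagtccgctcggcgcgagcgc
Gad1, chr2:70561879-70562178, plus strand: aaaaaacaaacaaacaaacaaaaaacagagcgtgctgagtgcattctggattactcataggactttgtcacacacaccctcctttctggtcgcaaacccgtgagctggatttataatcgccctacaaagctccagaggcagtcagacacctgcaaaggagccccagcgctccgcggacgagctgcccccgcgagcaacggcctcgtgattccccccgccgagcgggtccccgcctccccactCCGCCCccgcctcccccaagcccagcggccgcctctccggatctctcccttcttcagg

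Each of these 4 windows held 1 GC box, which 35.7% of all 32841 RefSeq promoters of the same length also hold. The Dlx2 window held 2 matches to CACGTG, found in 7.15% of all promoters, and 1 CCAAT box. The Sp9 window held 2 CCAAT boxes, found in 37.4%. None of the 4 held TAATTA, which 5.29% of all promoters hold. GC content was 69.3% for Dlx1, 66.3% for Dlx2, 63.7% for Sp9 and 60% for Gad1, against a median of 52.7%. RefSeq gave promoters for 7 of the 9 genes.

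Dlx1 and Dlx2, the pair of factors at the base of the interneuron programme, stood lower in cKO, with cKO replicate 3 apart from the rest. Dlx1 had 326.7, 281.3 and 1.415 CPM in the 3 cKO libraries, against 520, 471.5 and 480.8 CPM in WT. Dlx2 had 110.3, 103.1 and 0 CPM in cKO, against 197.7, 147.8 and 190.9 CPM in WT. The WT libraries were thus close to each other, 2 cKO libraries lay below them, and cKO replicate 3 held 1 count of Dlx1 and none of Dlx2. The log2 fold change was −1.27 (SE 1.25, edgeR adjusted p = 0.77) for Dlx1 and −1.33 (SE 1.32, adjusted p = 0.774) for Dlx2. Without cKO replicate 3 these became −0.68 (SE 0.262, adjusted p = 0.392) and −0.73 (SE 0.419, adjusted p = 0.556). The ratio of Dlx1 to Dlx2 in TPM, a unit scaled to transcript length and library total, was 2.59 and 2.39 in cKO replicates 1 and 2 and 2.3, 2.8 and 2.2 in WT, so the pair kept nearly the same proportion where both were counted.

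Counts of 0 or 1 in a library were more frequent among genes with few exons in these data, without matching for the values in the other libraries. Of the 380 genes with 1 to 3 exons and a mean of at least 20 CPM, 20.5%, 6.32% and 35.5% had 0 or 1 count in cKO replicates 1 to 3, and 43.9%, 12.4% and 37.6% in WT. For the 4914 genes with over 3 exons the share was 0.753% to 3.93% in cKO and 0.733% to 3.74% in WT. Among 3108 genes with a mean of at least 50 CPM in the other 2 cKO libraries, 105 (3.38%) had 0 or 1 count in cKO replicate 3, and 45 of these had 1 to 3 exons. Dlx1, Dlx2 and Sp9 belong to the class with few exons, as do Cd24a, Dlx5, Dlx6os1 and Sp8. The part of exon number in the values of these genes, the low cKO values included, was not tested. Gad1, with 17 exons, does not belong to that class.

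Reads at the Dlx1 locus are shared with Dlx1as, a noncoding RNA from the opposite strand whose span overlaps that of Dlx1. In GENCODE their exons share 335 bases, 8.15% of the Dlx1 exons. The labels state no strand setting. The deposited counts of both genes were not whole numbers in 5 of 6 libraries, which shows that reads were divided between them by estimate. Dlx1as had 16.13, 38.03 and 2.829 CPM in cKO, against 260.6, 135.7 and 234 CPM in WT. All 3 cKO values lay below all WT values, and the fitted log2 fold change was −3.44 with an SE of 0.914 (edgeR adjusted p = 0.207). Of the counts given to either gene, Dlx1as took 4.75% (exact 95% counting interval 2.45 to 8.08) in cKO replicate 1 and 12% (8.57 to 16) in cKO replicate 2. In cKO replicate 3 it took 66.7% (9.43 to 99.2), a share of only 3 counts. In WT it took 33.4% (29.9 to 37), 22.3% (19.4 to 25.5) and 32.7% (29 to 36.6). With counts of both genes summed, the locus had 255, 319 and 3 counts in cKO, against 695, 756 and 614 in WT. The summed log2 fold change was −1.66 (SE 1.14, adjusted p = 0.635), an alternative chosen after seeing the data.

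**Figure D2:**
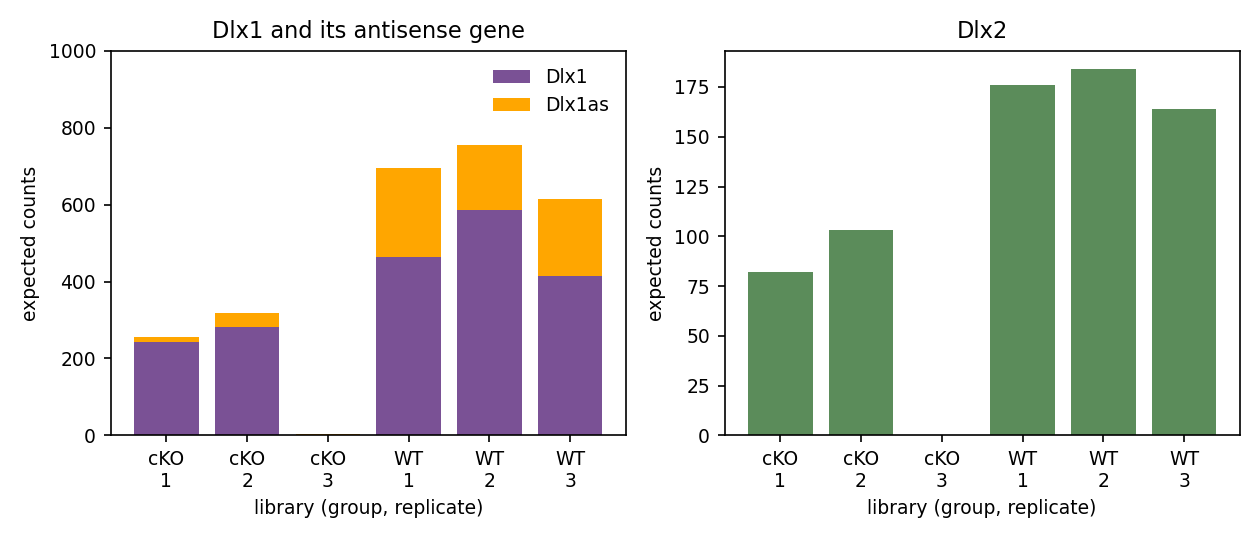
Expected counts per library at the Dlx1 locus, stacked as Dlx1 and Dlx1as (left), and for Dlx2 (right), with the cKO libraries left of WT. The share of Dlx1as is smaller in cKO replicates 1 and 2 (4.75% and 12%) than in WT (22.3% to 33.4%), and cKO replicate 3 has 3 counts at the locus and 0 for Dlx2.

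The second DLX locus, on chromosome 6, was barely counted. Dlx5 (6877801 to 6882068) had 2, 24 and 1 counts in cKO, against 1, 1 and 1 in WT. Nearly all of them came from cKO replicate 2, and the other libraries were at or below the floor of 3 counts. The ratio of pooled counts, cKO over WT, was 11 (exact 95% counting interval 3.39 to 56.7). A two-sided exact permutation test of CPM over the 6 libraries gave p = 0.1, the smallest that 3 against 3 allows. Only scaling to library size set cKO replicate 3 above WT: its 1 count became 1.415 CPM, against 0.8033 to 1.164 CPM in WT. Dlx6os1 (6820543 to 6871627) had 0 counts in all cKO libraries and 14, 0 and 7 in WT, at least 5.73-fold lower in cKO against a floor of 3 counts over the group. One WT library was also at 0, and the exact permutation test gave p = 0.4. Dlx6, whose span Dlx6os1 overlaps, had 5 counts in cKO replicate 2 and none elsewhere, and shares no exonic base with Dlx6os1 in GENCODE. Intervals and floors cover counting error only.

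Of the 2 SP factors, only Sp9 was found. Sp9 had 0, 45.04 and 0 CPM in cKO, against 84.24, 98 and 94.29 CPM in WT. WT libraries again lay close together, while 2 of 3 cKO libraries held no count, which allows up to 4.03 and 4.24 CPM. The fitted log2 fold change, −2.57 with an SE of 1.55 (edgeR adjusted p = 0.579), became −9.36 without cKO replicate 2, the library with all of its cKO counts; a fitted fold against libraries at 0 depends on the prior count. Sp8 (chromosome 12, 118846288 to 118852578) had 0 counts in all 6 libraries.

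The GABA-synthesising enzymes were lower on average in cKO, and both groups were uneven. Gad1 had 0, 35.03 and 4.244 CPM in cKO, against 51.66, 114.1 and 79.16 CPM in WT. Gad2 (chromosome 2, 22621015 to 22693877) had 21.51, 63.06 and 8.487 CPM in cKO, against 50.54, 132.5 and 27.94 CPM in WT. The groups did not overlap for Gad1 and overlapped for Gad2, and in both groups replicate 2 was the highest library for both genes. On the log2 scale Gad1 differed by −2.59 (SE 1.25, edgeR adjusted p = 0.465) and Gad2 by −1.17 (SE 0.886, adjusted p = 0.676). Leaving out 1 library moved Gad1 to between −5.20 (without cKO replicate 2) and −2.11 (without cKO replicate 1). It moved Gad2 further, to −2.22 without cKO replicate 2, −0.72 without cKO replicate 3 and −0.32 (SE 0.872, adjusted p = 0.903) without WT replicate 2. Neither gene passed in any of these fits.

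Other genes of GABA neurons were also highest in replicate 2 of each group. Npy, which encodes a neuropeptide of interneurons, had 114.1 CPM in cKO replicate 2 and a mean of 11 CPM in the other cKO libraries, a ratio of 10.4. In WT it had 314.1 CPM in replicate 2 and a mean of 44.4 CPM in the others, a ratio of 7.07. For Lhx6, a factor of interneurons from the medial ganglionic eminence, the ratio was 7.11 in cKO and 16.9 in WT. For Gad2 it was 4.2 in cKO and 3.38 in WT. Dlx1 did not follow them: its ratio was 1.71 in cKO and 0.942 in WT. The pattern was not limited to GABA neurons, since Slc17a7, a vesicular glutamate transporter, had a ratio of 7.84 in cKO and 5.49 in WT, and 22% of all tested genes were highest in replicate 2 of both groups.

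Cd24a (chromosome 10, 43579169 to 43584265, 2 exons) rose in cKO. It had 2141, 1749 and 2044 CPM in cKO, against 664.9, 470.7 and 634.4 CPM in WT. The lowest cKO library stood well above the highest WT library, and the spread within each group was small beside the gap. The log2 fold change was 1.74 (SE 0.227, edgeR adjusted p = 0.0282), which ranks 28 by p among the tested genes. Its expected counts were whole numbers in all 6 libraries, 4784 in total in cKO and 1723 in WT. By TPM it ranked 116, 129 and 86 among all genes in the cKO libraries, against 263, 387 and 304 in WT. The call was lost on leaving out any 1 library (adjusted p = 0.0638 to 0.218, log2 fold change at least 1.60) and with upper-quartile scaling (1.44, adjusted p = 0.288).

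**Figure D3:**
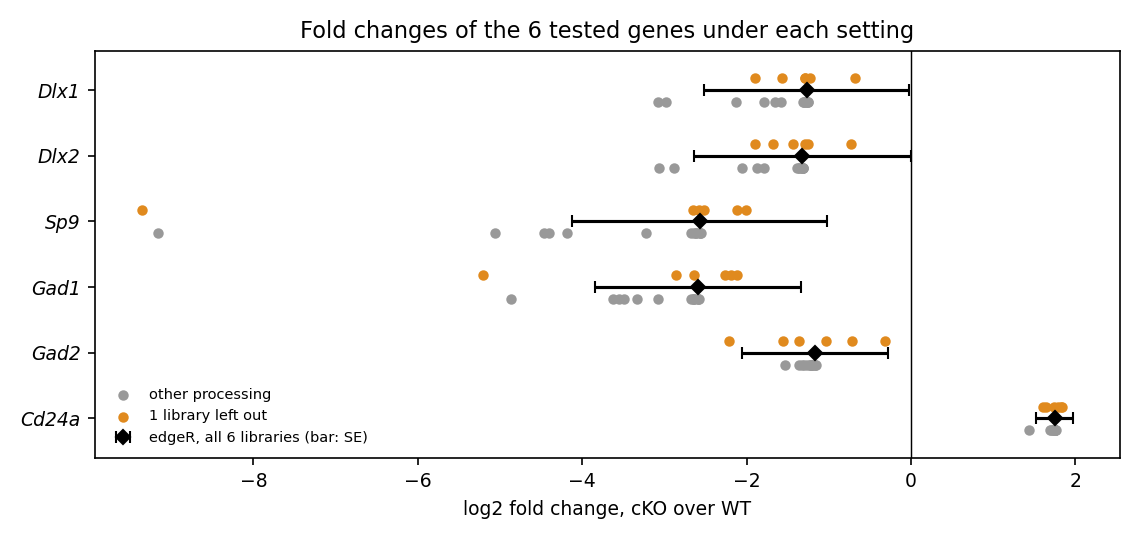
Log2 fold change, cKO over WT, of the 6 tested genes: edgeR on all 6 libraries (black diamond, bar: SE), with 1 library left out (orange) and with other processing (grey). Cd24a stays between 1.44 and 1.84, while Gad1 and Sp9 reach −5.20 and −9.36 where cKO replicate 2 is left out.

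Levels can be ordered within a group by TPM, which is scaled to length. In cKO, Cd24a stood at 1764 ± 396 TPM (SD, n = 3, as for all values here), ahead of Dlx1 at 98.9 ± 85.5 and Dlx2 at 39.5 ± 34.3. Dlx5 at 10.4 ± 13.6, Gad2 at 7.23 ± 6.27, Sp9 at 7.23 ± 12.5 and Gad1 at 5.59 ± 7.78 TPM followed in cKO. The means of these genes differed by less than the spread between libraries, as did those of Dlx1 and Dlx2. Within each cKO library, however, Dlx1 stood above Dlx2 (158.6 against 61.25, 137.1 against 57.38 and 0.91 against 0 TPM). In WT the order was Cd24a at 538 ± 80.9 TPM, Dlx1 at 273 ± 22.4, Dlx2 at 113 ± 13.7, Sp9 at 50.7 ± 5.64, Gad1 at 38.7 ± 16.6 and Gad2 at 18.8 ± 15.7. There the libraries of Cd24a, Dlx1 and Dlx2 did not overlap with those of the next gene, while Sp9 overlapped with Gad1 and Gad1 with Gad2. Within each WT library Sp9 still stood above Gad1, though barely in replicate 2 (57.13 against 57 TPM). Gad1 likewise stood above Gad2, with ratios of 1.87, 1.56 and 5.18 in WT replicates 1 to 3. Dlx6os1 at 2.72 ± 2.77 and Dlx5 at 1.29 ± 0.199 TPM were the lowest genes above 0 in WT.

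Across the 6 libraries the genes followed more than 1 pattern. Pearson's r of log2 CPM was 0.999 between Dlx1 and Dlx2 and 0.953 between Gad1 and Sp9, but 0.437 between Dlx1 and Gad1. Cd24a ran against the others, with r of −0.554 with Dlx1 and −0.844 with Gad1. These values describe 6 points that share the difference between groups and the low values of cKO replicate 3. Among all tested genes the closest to Dlx1 were Gorasp2 (r = 0.9998), Dlx2 and Glo1, and those closest to Dlx2 were Glo1, Olig1 and Surf4. Glo1 had 92.78, 87.08 and 0 CPM in cKO, against 166.2, 120.5 and 154.8 in WT, the same shape as Dlx2. The closest to Sp9 were Gatm, Cdca7 and B2m (r = 0.9927 to 0.9975), and to Gad1 they were Nacc2, Hmgb2 and Txndc12 (0.9823 to 0.9879). The closest to Gad2 were Ramp1, Cdh20 and Rlbp1 (0.9774 to 0.9841). For Cd24a they were Zbtb18, a transcriptional repressor of the developing cortex, Sema6b, a guidance protein, and Ywhag (0.9928 to 0.9975).

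Related genes were read from lists written for the lineage. For scale, 744 of the 5918 genes tested had an unadjusted p below 0.05 in edgeR with unrounded counts. Of 18 other transcription factors of the ganglionic eminences and interneurons, 13 were detected, 4 were tested and 0 called (2 at an unadjusted p below 0.05), with 3 of 4 lower in cKO and a median log2 fold change of −1.84. Sox6, a factor of interneurons and of oligodendrocyte precursors, differed by −2.75 (SE 0.774, edgeR adjusted p = 0.23). Zeb2, which is also made in young cortical neurons and glia, differed by 1.42 (SE 0.284, adjusted p = 0.116). The more specific early factors Gsx1, Gsx2 and Nkx2-1 had 0 counts in all 6 libraries.

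Of 9 other genes for making, loading, taking up and breaking down GABA, or for its chloride gradient, 8 were detected, 6 were tested and 0 called (1 at an unadjusted p below 0.05). All 6 were lower in cKO, with a median of −0.43. Abat, which breaks down GABA, had 12.1, 7.006 and 7.073 CPM in cKO, against 50.54, 24.1 and 30.27 in WT, a difference of −1.99 (SE 0.468, edgeR adjusted p = 0.171). Slc32a1, the transporter that loads GABA into vesicles and a defining marker of GABA neurons, had 0 counts in all 6 libraries. Of 21 interneuron subtype and migration genes 17 were detected, 6 were tested and 0 called (1 at an unadjusted p below 0.05), 4 being higher and 2 lower. Calb1, the calbindin gene, had 6.723, 8.007 and 4.244 CPM in cKO, against 14.6, 12.05 and 13.97 in WT, which do not overlap (log2 fold change −1.06, SE 0.368, edgeR adjusted p = 0.304). Calb2, the calretinin gene, had 107.6, 52.05 and 135.8 CPM in cKO, against 30.32, 53.82 and 65.19 in WT, which overlap.

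Of 18 other genes of migrating neuroblasts, 17 were detected, 12 were tested and 1 was called, with 11 of 12 higher in cKO and a median of 1.02. Sox11, a factor of newborn neurons, rose by 2.51 (SE 0.271, edgeR adjusted p = 0.0177), with 3833, 3003 and 5545 CPM in cKO, against 817.7, 624.1 and 734.5 in WT. Dcx, the microtubule-binding doublecortin of migrating neurons, had 2279, 1761 and 2709 CPM in cKO, against 1223, 814.5 and 1194 in WT (log2 fold change 1.06, SE 0.256, adjusted p = 0.176). Igfbpl1 differed by 1.89 (SE 0.415, adjusted p = 0.144) and Tubb3, a neuronal tubulin, by 0.87 (SE 0.197, adjusted p = 0.162). The groups did not overlap for 9 of the 12 in the higher direction and 1 in the lower. The lower gene was Pax6, with 13.45, 38.03 and 9.902 CPM in cKO, against 68.51, 110.8 and 67.51 in WT. At an unadjusted p below 0.05 in edgeR there were 7 higher and 1 lower. Cd24a had the sign of most of this list, and Dlx1, Dlx2, Sp9, Gad1 and Gad2, none of which passed, had a negative sign. The 8 cycling progenitor genes gave 7 tested, all lower in cKO (median −1.22), of which 1 passed: Ccna2, a cyclin, fell by 4.87 (SE 0.659, adjusted p = 0.0292).

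Markers of other cell types moved alongside. The 14 genes of cortical excitatory neurons, which also carry Cd24a, Sox11 and Dcx when young, summed to 5671 to 6350 CPM in cKO and 426 to 978.4 in WT, with 6 of 8 tested genes higher and 1 called, Neurod2. Neurod2, which has 2 exons and so is in the class with few exons, had 2653, 1998 and 2079 CPM in cKO. It was at 0 in every WT library. The 13 oligodendrocyte-lineage genes summed to 16.97 to 981.5 CPM in cKO and 4820 to 6928 in WT, with 7 of 8 tested called lower, and Mag, Myrf and Enpp6 at 0 in all cKO libraries, against 5 to 9, 17 to 21 and 12 to 26 counts in WT. Mog and Sox10 were also at 0 in cKO, but had at most 1 count in any WT library. Olig1, also made by progenitors of the ganglionic eminences, had 949.3, 625.6 and 0 CPM in cKO, against 1931, 1315 and 1857 in WT, and was among the genes closest in shape to Dlx2. Like Dlx2, Olig1 (1 exon) is in the class with few exons, and both were at 0 in cKO replicate 3. The part of exon number in this likeness was not tested. The 8 astrocyte genes summed to 1193 to 1494 CPM in cKO and 5060 to 5799 in WT, with all 7 tested lower and 1 called, Aldoc. Of 12 genes of striatal projection neurons, which share the DLX and GAD genes, 1 was tested and not called, and Drd1, Penk and Adora2a were at 0 in all 6 libraries. The part of these shifts in the values of the 9 genes was not tested.

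**Figure D4:**
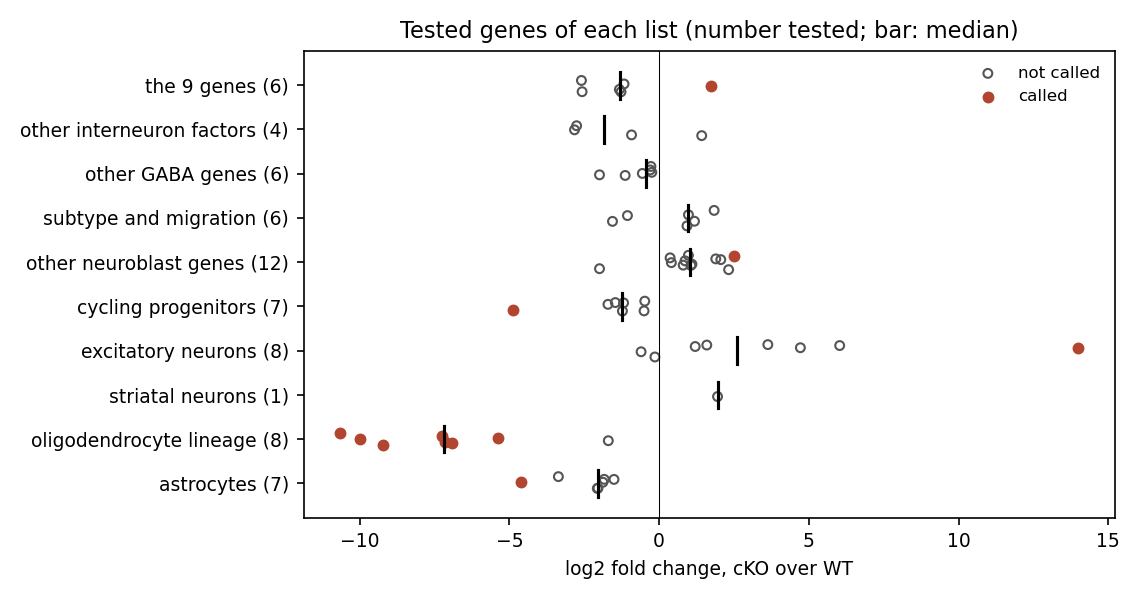
Log2 fold change, cKO over WT, of every tested gene in each list, with the number tested in brackets, a bar at the median and filled points for called genes. The 9 genes and the interneuron factors lie mostly below 0 and the neuroblast genes mostly above, with Cd24a and Sox11 the called genes among them. Values beyond 10 in size belong to genes with 0 or 1 count in most libraries of one group and depend on the prior count.

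Because the deleted gene acts on RNA methylation, the transcripts were searched for GGACT, the commonest form of the methylation motif, in GENCODE transcripts that carry the accession of the files. Cd24a held no GGACT in 1816 bases. Dlx1 held 6 (1.46 per kb), Dlx2 3 (1.21 per kb), Sp9 4 (0.886 per kb), Gad2 3 (0.522 per kb) and Gad1 1 (0.298 per kb). Over 8937 transcripts of tested genes the median was 1.05 per kb, with quartiles of 0.65 and 1.52. Other forms of the motif were not searched, GENCODE lengths differ from those in the files for Dlx1, Sp9, Gad1 and Gad2, and a match shows a sequence, not a methylated base.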

How the data were processed

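RNA was measured in 3 Mettl14 cKO and 3 WT libraries, grouped by sample title. Per the submitters' processing notes, STAR 2.7.10b and RSEM 1.3.3 were used with build mm10. Each library has 1 table of transcripts from RSEM, deposited by the authors. Its expected counts, per the file headers, are fragments assigned to a transcript by estimate. Its TPM values, per the file headers, are relative to length and to the library as a whole. Lengths and effective lengths, other deposited columns per the file headers, gave mean fragment lengths. For strand setting and filters, nothing is stated in the labels.

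Transcripts were summed by gene and the sums rounded. Groups were compared with the quasi-likelihood test of edgeR 4.0.16 in R 4.3.3, after filterByExpr (minimum count 10) and TMM scaling. No covariate was used, p-values were adjusted by Benjamini-Hochberg over 5918 genes, and the script was tested on simulated data. The SE was derived from the F statistic and the fold change, so it restates the p-value. Fold changes are cKO over WT. The 2 genes too sparse to test had two-sided exact permutation tests.

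The text names all 9 genes. From each list it takes called members and up to 3 further tested members with the smallest p, and for each tested gene the 3 tested genes with the highest Pearson's r. Slc32a1, Npy, Lhx6, Slc17a7, Pax6, Dlx1as, Dlx6, Olig1 and other genes named at 0 were chosen after their values were seen. A few list members are not reported here. The genes and lists were chosen with earlier results of these data known. The alternatives included scaling by RLE or upper quartile, 2 other filters, unrounded counts, DESeq2 1.42.0, limma 3.58.1 (voom, and log2(TPM + 1)), a replicate block, a term for replicate 2, TMM on genes with over 3 exons, and leaving out libraries. Summing Dlx1 with Dlx1as was added after seeing the data.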

Additional observations from a re-analysis of the deposited data

How the results depend on the processing

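The test called 54 of all genes and 1 of the 6 tested members, Cd24a. The count of all genes was 22 with no filter and 22 with a filter of 1 CPM in 3 libraries, 19 with a term for replicate 2, 429 with DESeq2, and 0 to 42 on leaving out 1 library. Without both replicate 2 libraries edgeR called 0 (740 at an unadjusted p below 0.05). The count of members was 0 with upper-quartile scaling, with either other filter, without both replicate 2 libraries and on leaving out any 1 library (0 to 0), and 1 in the other fits apart from the replicate block. Same-numbered libraries of the groups had deviations that correlated at 0.0519, 0.457 and 0.156, and only the replicate 2 libraries correlated best with each other, so the numbers were not taken as pairs; with the replicate number as a block 1 gene was called and 0 members. Cd24a kept its direction in all 19 alternatives (1.44 to 1.84) and passed in 8, with adjusted p from 4.53e-13 (DESeq2) to 0.288 (upper-quartile scaling, where the median of all genes was −0.22 in place of 0.069). Dlx1, Dlx2, Sp9, Gad1 and Gad2 kept a negative sign in all 19 alternatives and passed in none, with adjusted p from 0.0738 for Sp9 to 0.973 for Dlx2. The cause of these changes was not tested. Dlx5, Dlx6os1 and Sp8 were at or near the floor of 3 counts in most libraries, and the part of depth in this was not tested.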
